A study of Homo sapiens with 12 samples.

Results

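The 4 genes of the human alkaline phosphatase family, ALPPL2, ALPP, ALPI and ALPL, were followed in HK2 cells, an established line of immortalised epithelial cells from the proximal tubule of the human kidney. They are 4 of the 58278 genes listed in each library and were found by their symbols. The family was selected on the large rise of ALPPL2 under short-chain fatty acids (SCFAs). The levels in SCFA-treated cells against cells without SCFA are therefore given as a description, without a test, and tests are reported for the other contrasts. The study asked how 2 SCFAs, propionate and butyrate, altered the transcription of tubular cells exposed to TNF-α. Each of 6 groups had 2 libraries, called biological replicates in the study. Ctrl cells received neither agent. TN cells received TNF-α at 5 ng/mL for 3 h. PRTN cells were kept with 15 mM propionate, and BUTN cells with 3 mM butyrate, during the 24 h before the same TNF-α stimulus, and in TNPR and TNBU cells the SCFA was given for 24 h after it. All 4 SCFA groups had thus also received TNF-α, and no group analysed here had an SCFA alone or TNF-α followed by 24 h without SCFA. The doses of propionate and butyrate differed. All groups came from 1 cell line, and whether replicates were separate cultures is not described further, so p-values measure the spread between these libraries.

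Alkaline phosphatases are enzymes held on the outer face of the plasma membrane by a glycosylphosphatidylinositol (GPI) anchor, where they release phosphate from many substrates. ALPL encodes the tissue-nonspecific enzyme of liver, bone and kidney, which breaks down pyrophosphate and pyridoxal phosphate and is needed for bone mineralisation. In the kidney it lies on the brush border of the proximal tubule. ALPP encodes the placental enzyme, ALPPL2 (now named ALPG) the germ cell or placental-like enzyme, and ALPI the enzyme of the intestinal brush border. Butyrate has long been known as an inducer of alkaline phosphatase in cultured epithelial cells.

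The 3 tissue-specific genes lie in a cluster on chromosome 2, all on the plus strand (GRCh38, GENCODE release 44). ALPP (ENSG00000163283.6) spans chr2:232378724-232382889, ALPPL2 (ENSG00000163286.8) chr2:232406844-232410714 and ALPI (ENSG00000163295.4) chr2:232456125-232460753. ALPL (ENSG00000162551.13) is on another chromosome, at chr1:21509397-21578410, also on the plus strand. The coding sequences of the canonical transcripts of ALPPL2 (1596 bases without the stop codon) and ALPP (1605 bases) were identical at 97.8% of aligned bases, with an uninterrupted identical run of 339 bases. Identity of ALPPL2 with ALPI was 89.5% and with ALPL 66.1%. This likeness bears on every value of the pair, since the authors' counting program, RSEM, splits reads that fit more than 1 gene. Over the whole canonical transcript, 29.3% of the 50-base stretches and 15.8% of the 100-base stretches of ALPPL2 also occurred in a transcript of ALPP. For ALPL these shares were 0.0% against each of the other members.

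A window of 120 coding bases without any difference, in exon 4 of both genes, shows a stretch from which a read could not be assigned to either gene. It lies at chr2:232407612-232407731 in ALPPL2 and at chr2:232379531-232379650 in ALPP, and 299 of the 1463 aligned windows of this length had no difference.
ALPPL2: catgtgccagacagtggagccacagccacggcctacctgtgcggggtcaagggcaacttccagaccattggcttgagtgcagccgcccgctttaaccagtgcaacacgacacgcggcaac
ALPP: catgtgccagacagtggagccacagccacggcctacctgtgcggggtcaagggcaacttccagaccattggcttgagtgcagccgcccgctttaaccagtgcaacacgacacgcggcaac

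The 250 bases before the start of the canonical transcript are shown for each member. They are given because ALPPL2 and ALPP were higher in SCFA-treated cells while ALPI, with a related promoter, was not detected above the counting limit. For ALPP, ALPI and ALPL this start lies inside the gene span given above, so each of these windows ends within that span. The sequences are those of RefSeq (GRCh38.p14, plus strand), which gave all 4 members. Capitals mark GC boxes (GGGCGG) and CACCC boxes (CACCC), searched on both strands. The windows are chr2:232406594-232406843 for ALPPL2, chr2:232378501-232378750 for ALPP, chr2:232455903-232456152 for ALPI and chr1:21509173-21509422 for ALPL, the last being 1 of 3 start sites listed for ALPL and that of its canonical transcript.
ALPPL2: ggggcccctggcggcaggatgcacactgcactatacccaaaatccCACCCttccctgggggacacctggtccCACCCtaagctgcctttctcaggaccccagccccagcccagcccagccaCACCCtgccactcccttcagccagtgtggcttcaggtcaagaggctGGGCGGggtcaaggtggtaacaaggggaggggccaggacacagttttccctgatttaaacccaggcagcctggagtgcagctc
ALPP: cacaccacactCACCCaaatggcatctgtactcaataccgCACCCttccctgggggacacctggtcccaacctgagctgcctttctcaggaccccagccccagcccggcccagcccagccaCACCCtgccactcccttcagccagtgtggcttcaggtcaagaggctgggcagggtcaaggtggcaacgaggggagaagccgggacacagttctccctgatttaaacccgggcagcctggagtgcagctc
ALPI: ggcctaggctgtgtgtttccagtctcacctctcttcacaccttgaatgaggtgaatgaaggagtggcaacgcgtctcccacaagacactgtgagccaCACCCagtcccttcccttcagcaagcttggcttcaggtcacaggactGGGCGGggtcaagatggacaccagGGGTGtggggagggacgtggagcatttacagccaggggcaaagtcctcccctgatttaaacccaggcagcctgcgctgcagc
ALPL: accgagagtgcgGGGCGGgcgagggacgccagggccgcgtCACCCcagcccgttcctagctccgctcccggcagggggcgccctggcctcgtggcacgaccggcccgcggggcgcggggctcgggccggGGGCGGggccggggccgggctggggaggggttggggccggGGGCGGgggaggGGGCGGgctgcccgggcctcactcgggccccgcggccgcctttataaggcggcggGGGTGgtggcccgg

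Over 300 bases (250 before and 50 after the start), the ALPPL2 promoter was identical to that of ALPP at 86.7% of aligned bases, to that of ALPI at 71.1% and to that of ALPL at 58.8%. ALPPL2 held 1 GC box, 83 bases before the start, and ALPI held 1, 106 bases before it. At the aligned place ALPP differed by G5A (ALPPL2 base first, position counted from 1 at the 5′ end of the motif), and no GC box was found in its window. ALPL held 4 GC boxes and a TATA box (TATAAA) 29 bases before the start, in a window of 82.3% G and C against 62.3% in ALPPL2. CACCC boxes were found 3 times in ALPPL2, 3 times in ALPP, 2 times in ALPI and 2 times in ALPL. The AP-1 motif (TGANTCA) was in none of these windows. The NF-κB pattern (a run of GGG and a CC with any bases between them, of the usual spacing) matched 3 times in ALPPL2, 3 times in ALPP, 2 times in ALPL and 0 times in ALPI, and in ALPL one of its matches overlapped a GC box. Of all 35116 promoter windows of this length, 45% held a GC box, 59.9% a CACCC box, 11.5% a TATA box, 7.71% an AP-1 motif and 58.7% the NF-κB pattern. These matches describe letters in the reference and not binding.

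The libraries held 27269986 to 33851130 expected counts, so that 3 counts, taken as the limit that a count of 0 allows, stood for 0.0867 to 0.112 CPM (the count scaled to the library total with TMM factors). Such limits and the count intervals below cover counting error only. Replicates of TNPR and TNBU differed more than those of the other groups, with a chi-square of 16.8 and 20.1 per gene against 3.35 to 7.16 elsewhere. In this bulk RNA, more cells expressing a gene and more RNA per cell cannot be told apart. ALPPL2, ALPP and ALPL passed the filter on low counts, the first 2 through the SCFA libraries, and ALPI did not pass it.

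ALPPL2, the gene on which the family was selected, was at or next to 0 without SCFA and had at least 113.86 counts with it. Its expected counts were 1 and 2 in Ctrl and 0 and 0 in TN. For PRTN they were 322.71 and 303.93, for BUTN 229.84 and 265.44, for TNPR 180.16 and 206.43, and for TNBU 113.86 and 207.44. Every SCFA library was above every library without SCFA, and the lowest value with SCFA was that of TNBU replicate 1. The mean level was 9.29 ± 0.0689 CPM for PRTN, 7.43 ± 0.339 for BUTN, 5.97 ± 0.895 for TNPR and 5.44 ± 2.05 for TNBU (SD, n = 2), against 0.0530 ± 0.0264 for Ctrl. PRTN and BUTN libraries did not overlap, whereas those of TNPR lay within the range of TNBU. How many of all tested genes separated in this way was not counted. Against TN, with 3 counts per library in place of 0, the level was at least 84.7-fold higher for PRTN, 67.7-fold for BUTN, 54.4-fold for TNPR and 49.6-fold for TNBU. Against the 3 counts of both Ctrl libraries together, the depth-adjusted count ratio was 176.6 in PRTN (95% counting interval 60.2 to 859.4) and 104.1 in TNBU (35.3 to 506.8).

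ALPP, the placental enzyme gene, had the same form. Its expected counts were 1 and 2 for Ctrl, 1 and 5 in TN, 235.29 and 230.07 for PRTN, 123.16 and 139.56 for BUTN, 81.84 and 137.64 for TNPR, and 74.53 and 132.52 for TNBU. Again no library with SCFA overlapped one without it, but the share of all tested genes that separated in this way was not counted. The level was 6.905 ± 0.132 CPM for PRTN, 3.94 ± 0.127 for BUTN, 3.41 ± 1.40 for TNPR and 3.505 ± 1.26 for TNBU, against 0.108 ± 0.101 in TN (SD, n = 2). BUTN, TNPR and TNBU did not differ beyond their spread, and both PRTN libraries lay above them. This order is a description, since ALPP passed in neither PRTN vs BUTN nor TNPR vs PRTN (tests below). Its level also depends on how reads were divided with ALPPL2. The count ratio to TN was 62.9 for PRTN (28.7 to 172.3) and 36.0 for BUTN (16.3 to 99.1), with 30.8 for TNPR and 32.2 for TNBU. An antisense RNA gene with 9.55 counts over the 12 libraries overlaps ALPP on the other strand, and whether the counting used strand is not given in the sources used here.

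The counts of the pair bear the mark of shared reads. ALPPL2 had no whole number in any of the 8 SCFA libraries, while the sum of ALPPL2 and ALPP was whole, within 0.005, in 5 of them. ALPL was whole in 12 of 12 libraries. RSEM gave ALPPL2 57.8% and 56.9% of the pair for PRTN, 65.1% and 65.5% for BUTN, 68.8% and 60.0% for TNPR, and 60.4% and 61.0% for TNBU. The share was thus lower in both PRTN libraries than in the other 6, and the TNPR replicates were the farthest apart. Summed, the pair had 558 and 534 counts for PRTN, 353 and 405 for BUTN, 262 and 344.07 for TNPR, and 188.39 and 339.96 for TNBU, against 2 and 4 for Ctrl and 1 and 5 in TN. The sum does not depend on how reads were divided within the pair. Its count ratio to TN was 147.7 for PRTN (67.6 to 403.4), 103.8 for BUTN, 85.0 for TNPR and 82.1 for TNBU.

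**Figure D1:**
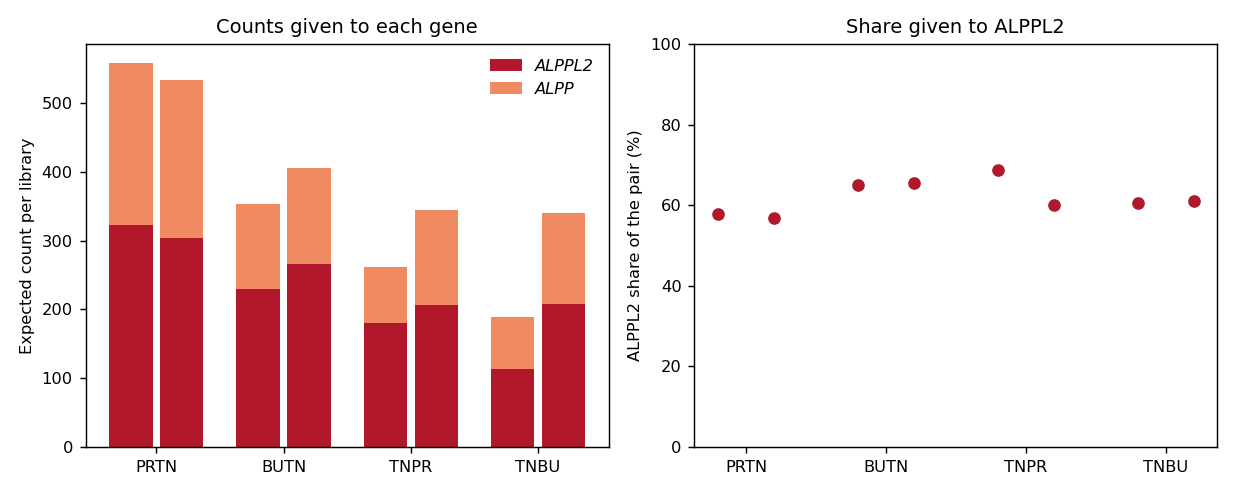
Left, expected counts (vertical axis) of ALPPL2 (red) and ALPP (orange) stacked for each of the 8 SCFA libraries, replicate 1 before replicate 2. Right, the percentage of the pair's counts given to ALPPL2 in each library; the points lie between 56.9% and 68.8%.

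ALPI, the intestinal enzyme gene, was listed at 0 in 11 of 12 libraries and at 1.03 in TNBU replicate 2, where the pair sum was not whole either. All 12 values were under the limit of 3 counts, and no fold is given. A level of ALPI below about 0.1 CPM was not detectable at this depth. Of its transcript, 98.8% of the 50-base stretches occurred in no other gene.

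ALPL, the tissue-nonspecific gene that kidney tubules normally express, differed from the cluster genes in having a low level already without SCFA. Expected counts were 27 and 29 for Ctrl, 18 and 26 in TN, 419 and 363 for PRTN, 492 and 516 for BUTN, 298 and 265 for TNPR, and 311 and 327 for TNBU. The lowest SCFA library had 265 counts and the highest library without SCFA 29, so the 2 sets were far apart. How common such a separation was among all tested genes was not counted. In CPM the level was 0.983 ± 0.0796 for Ctrl, 0.802 ± 0.186 in TN, 11.6 ± 0.770 for PRTN, 15.15 ± 0.340 for BUTN, 8.65 ± 0.248 for TNPR and 10.9 ± 0.0298 for TNBU (SD, n = 2). BUTN was highest and TNPR the lowest of the SCFA groups, while the means of PRTN and TNBU were closer together than the SD of PRTN. The log2 fold change against TN was 3.84 (SE 0.22) for PRTN, 4.22 (0.22) for BUTN, 3.42 (0.22) for TNPR and 3.75 (0.22) for TNBU, or a count ratio of 14.4 (10.6 to 20.01), 18.8 (13.9 to 26.1), 10.8 (7.91 to 15.0) and 13.5 (9.96 to 18.8). A second gene overlaps ALPL on the same strand in GENCODE release 44 and has no row in the counts.

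**Figure D2:**
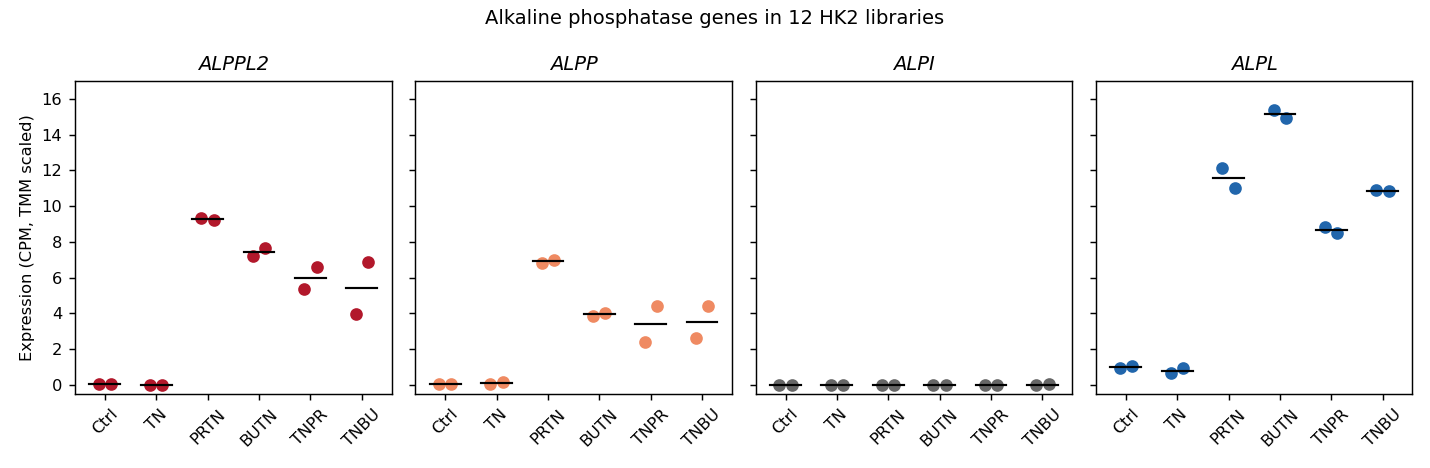
Level of each gene in CPM (vertical axis, the same in all panels) in the 6 groups; each point is 1 of 2 libraries and the line is their mean. ALPPL2, ALPP and ALPL lie above 2 CPM in every SCFA library and at or under 1.04 CPM in every Ctrl and TN library, while ALPI stays at or next to 0.

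Between genes, levels were compared per kilobase of summed exon length. ALPPL2 stood at 3.73 CPM per kb in PRTN and ALPL at 3.89, which is within the spread of ALPL there (3.71 to 4.07). In BUTN the level of ALPL was 5.08 CPM per kb, that of ALPPL2 2.98 and that of ALPP 1.37. In TNBU the same values were 3.65, 2.18 and 1.22. ALPL thus led per length in BUTN and TNBU, with no overlap of libraries, and in TNPR its libraries (2.84 and 2.96) also lay above those of ALPPL2 (2.14 and 2.65).

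TNF-α alone was the first contrast that the selection had not used, in which ALPL was the only member with enough counts to test and was not called (TN vs Ctrl; limma-voom, called at a fold change over 1.5 and a Benjamini-Hochberg adjusted p under 0.05). In this contrast 1.3% of the 24342 tested genes were called. ALPL had a log2 fold change of -0.30 (SE 0.28, 95% interval -0.91 to 0.31, adjusted p = 0.670), which leaves room for a change of either sign. The value was -0.07 without TN replicate 1 and -0.535 without TN replicate 2. ALPP and ALPPL2 had at most 5 counts in these 4 libraries, and no fold or test is given for them.

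Propionate and butyrate, at their different doses, were then compared at each time, and before TNF-α the point estimates of the cluster genes and of ALPL had opposite signs. In PRTN vs BUTN 0.168% of all tested genes were called, and 0 of the 3 tested members. ALPPL2 was 0.32 higher in PRTN on the log2 scale (SE 0.17, 95% interval -0.04 to 0.68, adjusted p = 0.421). ALPP was 0.805 higher (SE 0.23, 0.30 to 1.31, adjusted p = 0.138), and in a fit of the 4 libraries of PRTN and BUTN alone it was called, at 0.81 and an adjusted p of 0.0063. For the summed pair, which does not rest on the division of reads, the difference was 0.51 with an adjusted p of 0.229. ALPL was lower in PRTN, at -0.39 (SE 0.09, -0.57 to -0.20, adjusted p = 0.0713). Both PRTN libraries lay above both BUTN libraries in ALPPL2 and ALPP and below them in ALPL. The share of all tested genes whose libraries separated in this way was not counted, so this order is a description. In TNPR vs TNBU 0.00822% of genes were called and again 0 of 3 members, with 0.165 for ALPPL2 (-0.27 to 0.60, adjusted p = 0.850), -0.08 for ALPP (-0.70 to 0.54, adjusted p = 0.962) and -0.33 for ALPL (-0.55 to -0.11, adjusted p = 0.395). The sign for ALPPL2 turned to -0.23 without TNBU replicate 1 and to -0.01 without TNPR replicate 2. That for ALPP turned to 0.28 without TNBU replicate 2, to 0.35 without TNPR replicate 1 and to 0.08 for the summed pair.

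The time of the SCFA, after TNF-α or before it, was the other contrast free of the selection. The point estimates were below 0 for all 3 tested members with both SCFAs. The groups compared also differed in the time from the TNF-α stimulus to collection, which cannot be told apart from the order of the agents. In TNPR vs PRTN 0.16% of genes were called. ALPPL2 had a log2 fold change of -0.65 (SE 0.18, -1.03 to -0.27, adjusted p = 0.197), ALPP -1.09 (SE 0.24, -1.62 to -0.56, adjusted p = 0.127) and ALPL -0.42 (SE 0.10, -0.63 to -0.21, adjusted p = 0.135). No member passed. No library of TNPR overlapped one of PRTN in any of the 3, but the share of all tested genes that separated in this way was not counted. With 2 libraries a group, and with reads shared by ALPPL2 and ALPP, this is a description only. The calls of the pair depended on libraries outside the contrast, through the shared estimate of the spread. Without TNBU replicate 1 ALPPL2 was called at -0.67 (adjusted p = 0.0255) and ALPP at -1.11 (adjusted p = 0.0385), and without TNBU replicate 2 they were called at -0.67 (adjusted p = 0.0256) and -1.11 (adjusted p = 0.0385).

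In TNBU vs BUTN 0.267% of genes were called. ALPL had a log2 fold change of -0.48 (SE 0.09, -0.67 to -0.28) with an adjusted p of 0.0368, a fold of 1.39 that lay under the fold threshold, so that it was not called. ALPPL2 stood at -0.49 (-0.91 to -0.07, adjusted p = 0.271) and ALPP at -0.21 (-0.80 to 0.39, adjusted p = 0.782). Without TNBU replicate 1 the value of ALPP became 0.14, and that of ALPPL2 -0.13. Whether the timing contrast differed between propionate and butyrate was tested as a difference of the 2 contrasts. In it limma-voom called 0% of genes, with 935 genes at an unadjusted p under 0.05. The number of genes called was 1 with edgeR and 4 with DESeq2. The difference was -0.16 for ALPPL2 (-0.73 to 0.41), -0.88 for ALPP (-1.68 to -0.08) and 0.06 for ALPL (-0.23 to 0.34), each with an adjusted p of 0.9999. The value for ALPP was -0.43 for the summed pair and -0.44 without TNPR replicate 1. The value for ALPPL2 was 0.23 without TNBU replicate 2.

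**Figure D3:**
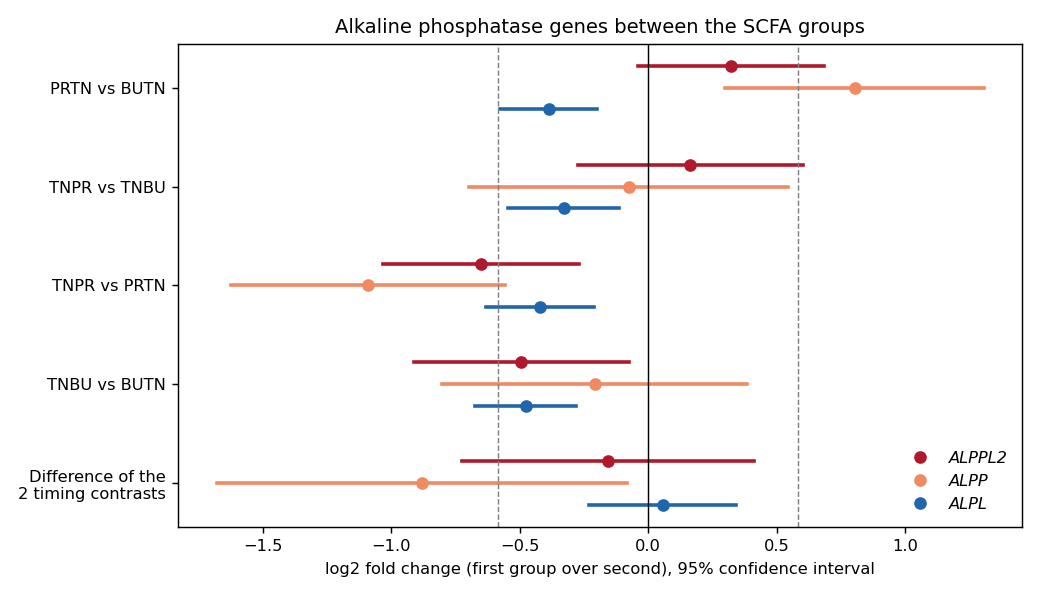
Log2 fold change (horizontal axis, first group over second) with its 95% confidence interval for ALPPL2, ALPP and ALPL in the 4 contrasts between SCFA groups and in the difference of the timing contrasts; dashed lines mark a fold change of 1.5. Points lie below 0 for all 3 genes in TNPR vs PRTN and TNBU vs BUTN, and none was called.

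Across the 12 libraries log2 CPM of ALPPL2 correlated with that of ALPP at r = 0.989 and with that of ALPL at r = 0.984, which mostly shows the step between 4 libraries without SCFA and 8 with it. Within the 8 SCFA libraries r was 0.905 for ALPPL2 and ALPP, which share reads, but 0.362 for ALPPL2 and ALPL and 0.203 for ALPP and ALPL. The libraries share the treatment, so these values are a description. Among 14981 genes with a mean of at least 1 CPM, 2025 had r over 0.95 with ALPPL2 and 1758 with ALPL, so likeness to either gene was common. The 5 most like ALPPL2 were SPANXN3 (r = 0.9964), CTSV (0.996), CTNNBIP1 (0.9959), CCNYL1 (0.9956) and APLP2 (0.9955). SPANXN3, a member of a family of testis-expressed genes, also had its lowest levels without SCFA, at 0 in both Ctrl libraries, and stood at 12.5 CPM for PRTN, 10.3 for BUTN, 9.04 for TNPR and 8.21 for TNBU. Among those most like ALPL were CTD-3064M3.3, IL22RA1, TNNC1 and TLE2 (r from 0.9956 to 0.9957). IL22RA1, a chain of the receptor for interleukin 22, was, like ALPL, highest in BUTN and lowest of the SCFA groups in TNPR, with 12.4 CPM for PRTN, 15.8 for BUTN, 11.4 for TNPR and 13.9 for TNBU against 3.21 in TN.

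Both called and uncalled genes lay beside the members. The contrasts with TN given from here on share the same 2 TN libraries, and over all tested genes 23.9% rose and 16.7% fell in PRTN, 23.1% and 14.8% for BUTN, 24.9% and 16.9% for TNPR, and 25% and 16.5% for TNBU. Within 250 kb of the chromosome 2 cluster the counts listed 21 genes other than the members, and 9 passed the filter, 6 of them protein-coding. Of these 9, 3 were called up in each of the 4 SCFA groups, namely the pseudogene ECEL1P2 between ALPP and ALPPL2, CHRND and EFHD1. ECEL1P2 and CHRND were at 0 in both TN libraries and passed the filter only through the SCFA libraries, so that their calls are no independent support, and EFHD1 was the one expressed in TN. CHRND, the delta subunit of the muscle acetylcholine receptor, was at 0 in Ctrl and TN and at 0.267 to 0.374 CPM with SCFA. EFHD1, a calcium-binding mitochondrial protein gene, rose from 13.6 CPM in TN to 34.9, 34.4, 29.6 and 27.3 in PRTN, BUTN, TNPR and TNBU. DIS3L2, TIGD1, EIF4E2 and GIGYF2, the other protein-coding genes, were not called, with log2 fold changes from -0.50 to 0.02. The pseudogene AC068134.10 fell in PRTN and was not called elsewhere.

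Around ALPL 17 genes were listed and 10 were tested. ECE1, the endothelin-converting enzyme gene, rose by 0.66 to 0.80 on the log2 scale in all 4 groups, and RAP1GAP, a GTPase-activating protein gene and the nearest tested one downstream of ALPL, by 1.17 to 1.46 (from 8.98 CPM in TN to 20.9, 24.8, 20.2 and 22.8). The pseudogene NBPF2P rose in 3 groups and was not called in BUTN. NBPF3, USP48, LDLRAD2 and HSPG2 were not called in any of them.

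**Figure D4:**
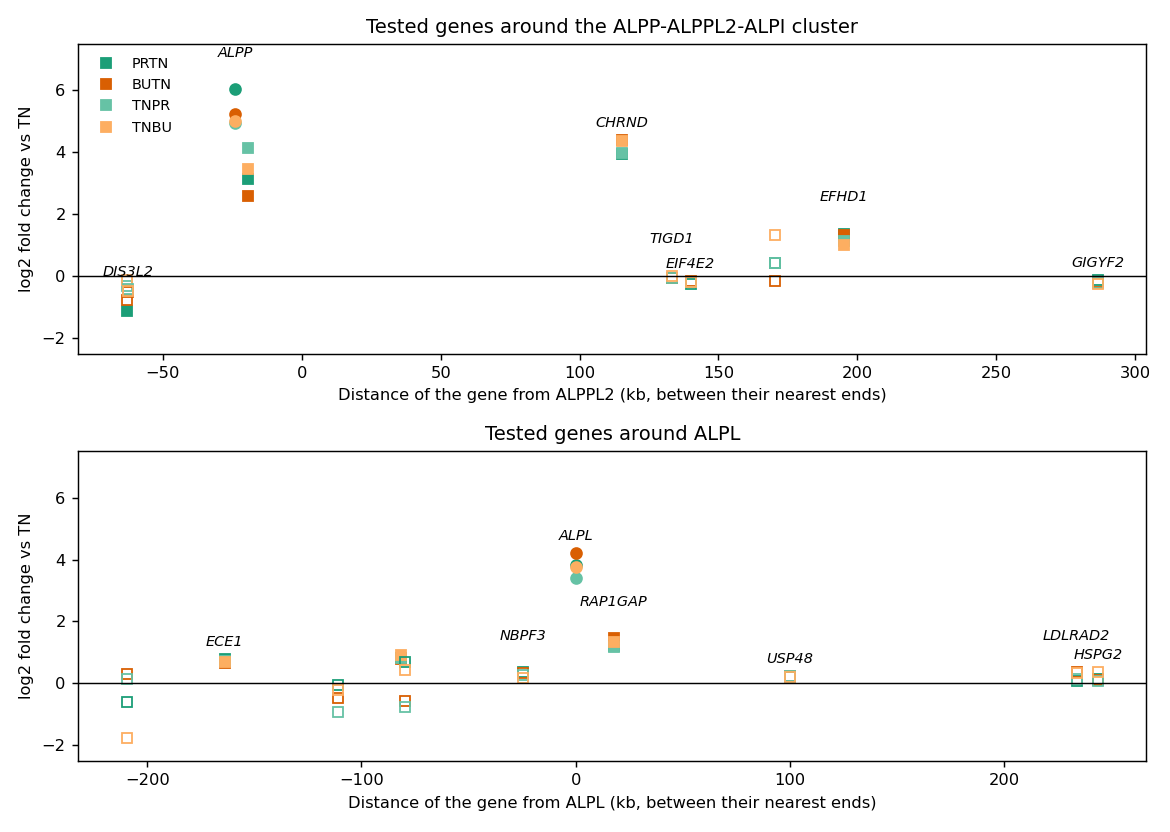
Log2 fold change against TN (vertical axis) of the tested genes around ALPPL2 (top) and ALPL (bottom), by distance in kb from that gene (horizontal axis); colours are the 4 SCFA groups, squares neighbours and circles members, and filled squares were called. ALPPL2 itself is not drawn, since its TN libraries were at 0. Called and uncalled neighbours lie on both sides of each member, and ECEL1P2 and CHRND, called in the top panel, were at 0 in TN.

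Other genes of the pathways around these enzymes were read from lists of gene names. Of 31 genes that make, attach or remodel the GPI anchor, all 31 were tested and 11 rose and 5 fell for PRTN, 6 and 6 for BUTN, 13 and 5 for TNPR, and 10 and 5 for TNBU. The median log2 fold change of the list was 0.23, 0.16, 0.18 and 0.21, beside 0.09, 0.08, 0.12 and 0.09 over all tested genes. PIGH, a subunit of the enzyme of the first step of anchor synthesis, rose from 4.54 ± 0.0901 CPM in TN to 18.5 ± 1.15 for PRTN and 15.8 ± 0.0542 for BUTN. MPPE1, which trims the anchor after its attachment to a protein, rose from 10.9 to 32.2 and 32.5 CPM in the same groups. PIGW, which acylates the inositol of the anchor, fell from 20.6 CPM to 6.86 and 7.61. All 3 were called in the 4 groups, with an adjusted p of at most 1.320e-06. They were named for the size of their change in these contrasts, so the p-values are no separate support.

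Of 24 genes of phosphate, pyrophosphate and mineralisation, 19 were tested, and 9, 10, 9 and 8 rose while 3, 2, 2 and 2 fell in PRTN, BUTN, TNPR and TNBU. The medians were 0.48, 1.13, 0.57 and 1.56. PHOSPHO1, a phosphatase of mineralising cells that acts beside ALPL in matrix vesicles, was at 0.0545 ± 0.0244 CPM in TN, from 1 and 2 counts, and at 5.71 ± 0.325, 4.17 ± 0.425, 5.22 ± 0.980 and 4.83 ± 1.33 with SCFA, and it passed the filter through the SCFA libraries. GPC3, a GPI-anchored heparan sulphate proteoglycan, rose from 0.366 to 5.79, 6.53, 4.98 and 5.97 CPM. AHSG, which encodes fetuin-A, an inhibitor of mineral growth in serum, was at 0 in Ctrl and TN and at 0.474 to 0.668 CPM with SCFA. These genes differ in role, since one favours and one opposes mineral formation. BMP2, BMP4 and ENPP1, which were expressed in TN, were called up in all 4 groups. BMP2 went from 18.1 CPM in TN to between 131.9 and 187.5, and ENPP1 from 27.04 to between 80 and 86.03. BMP4 was at 20.55 CPM in Ctrl and went from 9.43 in TN to between 49.2 and 75.9. SPP1 and SLC20A1 fell in all 4 groups. SPP1 went from 355 ± 7.53 CPM in TN to between 106.8 and 109.6, and SLC20A1 from 97.9 to between 53.1 and 58.5. The summed level of the list was 702.5 to 717.5 CPM in TN and 677.7 to 763.9 in the SCFA groups. The bone genes IBSP, MGP, MEPE and SP7, and FETUB, which encodes fetuin-B, had at most 4 counts in any library and were not tested.

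The other phosphatase lists were short. Of 6 genes of vitamin B6 phosphates, PDXP and AOX1 rose in all 4 groups, PHOSPHO2 fell in TNPR and TNBU, and the others were not called. PDXP, the pyridoxal phosphatase inside the cell, rose from 2.98 ± 1.89 CPM in TN to 34.6 ± 0.848 for PRTN, 20.6 ± 0.0854 for BUTN, 36.7 ± 5.84 for TNPR and 30.7 ± 5.47 for TNBU. Of 7 acid phosphatase genes 6 were tested, of which 1, 0, 1 and 0 rose and 2 fell in each group. The latter were ACP5 and ACP2. ACP5, the tartrate-resistant enzyme of osteoclasts and macrophages, went from 33.9 ± 7.34 CPM in TN to 10.99 ± 0.224, 17.2 ± 0.0519, 12.5 ± 0.507 and 14.8 ± 0.518. ACP2, a lysosomal enzyme, went from 37.8 CPM to between 14.4 and 17.5. ACP7 was called up in PRTN, at 0.321 CPM, and not in the others. The medians of this list were below 0, at -0.37, -0.16, -0.29 and -0.26.

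Of 11 ectoenzymes of nucleotides all were tested, with 4, 3, 4 and 4 up and 1 down in each group. ENTPD2, which degrades ATP outside the cell, rose from 0.201 ± 0.0207 CPM in TN to 26.4 ± 0.796, 29.3 ± 0.244, 25.9 ± 1.05 and 26.04 ± 0.0175 in PRTN, BUTN, TNPR and TNBU. ENTPD8, of the same family, rose from 0.0911 to between 4.37 and 4.91 CPM. ENPP3, a nucleotide pyrophosphatase of the cell surface, fell from 253.1 ± 3.02 CPM to 9.70 ± 0.948, 11.7 ± 0.301, 13.3 ± 5.13 and 10.4 ± 0.254. The adjusted p was at most 1.103e-09 for ENPP3 and 1.363e-08 for ENTPD2, genes that were named for the size of these same changes. The summed level of the list was 325 to 327.5 CPM in TN and 147.2 to 166.2 in the SCFA groups, and ENPP3 made up most of the sum in TN.

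Because the 3 cluster genes take their names from other tissues, markers of gut and placenta were read beside them. No list of germ cell genes was read. Of 25 enterocyte brush border genes 13 were tested, and 8, 6, 6 and 6 rose and 1 fell in each group. ANPEP, an aminopeptidase of the brush border of gut and kidney, was at 0 in TN and at 2.004, 2.10, 0.999 and 1.40 CPM with SCFA. KRT20, a keratin of differentiated gut epithelium, rose from 0.0904 ± 0.0752 CPM in TN to 6.53 ± 0.228, 12.7 ± 0.757, 4.03 ± 1.09 and 6.85 ± 0.0275. VIL1, which encodes villin, was at 0 in Ctrl and TN and at 0.627 to 1.43 CPM with SCFA. TREH was the one that fell, from 0.364 CPM in TN to 0.1205 in BUTN and 0 in PRTN, TNPR and TNBU. DPP4 and EPS8, at 88.3 and 33.0 CPM in TN, were not called in any SCFA group, with log2 fold changes from -0.01 to 0.47. The summed level of the list was 120.1 to 125.4 CPM in TN and 138.1 to 170.4 in the SCFA groups. The defining intestinal genes SI, LCT, CDX1, CDX2, FABP1 and FABP2 had at most 3 counts in any library.

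Of 30 placental trophoblast genes 19 were tested, and 11 rose in each of the 4 groups while 1, 2, 1 and 2 fell. PLAC1, a placental surface protein gene, rose from 0.602 ± 0.114 CPM in TN to 10.3 ± 0.360, 10.8 ± 0.712, 9.58 ± 1.87 and 10.7 ± 1.14. CAPN6 was at 0 in Ctrl and TN and at 2.47 to 3.69 CPM with SCFA, and CGB5, of a family of near-identical genes whose counts are uncertain, rose from 0.0594 CPM to between 1.11 and 1.34. TFAP2C rose from 0.201 CPM in TN to between 1.998 and 2.49. PSG1, PSG3, PSG5 and PSG9, whose counts were not all whole, were called up in all 4 groups. GCM1, CGA and HSD3B1, also on the list, had at most 4 counts in any library. The summed level of the list was lower with SCFA, at 52.25 to 68.47 CPM against 93.6 to 96.4 in TN and 72.24 to 78.5 in Ctrl. PAPPA, a protease that cleaves binding proteins of insulin-like growth factors, held most of the sum in TN. It was at 63.1 ± 5.26 CPM in Ctrl and fell from 85.4 ± 1.997 in TN to 24.6 ± 2.44, 26.2 ± 1.31, 21.6 ± 1.16 and 22.2 ± 4.90. Genes at or near 0 in Ctrl and TN pass the filter only through the SCFA libraries, so counts over the tested part of a list cannot stand for the whole list.

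The labelled cell type was checked in the same way. Of 10 epithelial genes all were tested, with 6, 6, 5 and 6 up and 1 down. Their summed level was 1697 to 1712 CPM in Ctrl, 1617 to 1702 in TN and 2483 to 3049 in the SCFA groups. CDH1, which encodes E-cadherin, rose from 0.109 ± 0.0489 CPM in TN to 13.8 ± 0.677 for PRTN and 14.1 ± 0.456 for BUTN. KRT19, a keratin of simple epithelia, rose from 4.53 ± 0.0897 CPM to 93.5 ± 3.30, 119.5 ± 2.42, 82.4 ± 0.135 and 113.4 ± 1.38 in PRTN, BUTN, TNPR and TNBU. OCLN, which encodes the tight junction protein occludin, rose from 3.895 CPM to between 11.2 and 13.4. EPCAM, an epithelial adhesion molecule gene, was the one that fell, from 57.1 ± 1.42 CPM to 19.7 ± 0.667, 22.1 ± 1.54, 15.3 ± 2.81 and 17.7 ± 4.82. Of 24 proximal tubule genes 19 were tested, with 11, 11, 10 and 10 up and 4 down in each group, and SLC22A6 was at 0 in all 12 libraries. LRP2 and MME, 2 defining surface proteins of the proximal tubule, were at 0 in Ctrl and TN and reached 0.448 to 0.869 and 0.517 to 0.715 CPM with SCFA. AQP1 and CUBN were called up in all 4 groups. AQP1 went from 0.439 CPM in TN to between 6.31 and 14.8, and CUBN from 1.28 to between 2.63 and 3.47. DPP4, also on this list and at 88.3 CPM in TN, was not called. The summed level of this list was 1158 to 1190 CPM in TN and 249.8 to 353.6 in the SCFA groups. CDH6, which encodes K-cadherin, carried most of this fall, from 749.9 ± 7.95 CPM in TN to 53.8 ± 0.296, 82.6 ± 2.48, 49.9 ± 16.9 and 44.7 ± 9.82. The other 3 that fell in each group were GGT1, an enzyme of glutathione breakdown at the brush border, PDZK1, a scaffold of brush border transporters, and the bicarbonate transporter gene SLC4A4. GGT1 went from 193.9 CPM in TN to between 63.9 and 72.4, PDZK1 from 119.3 to between 31.1 and 50.5, and SLC4A4 from 14.7 to between 5.25 and 6.795.

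For other cell types, 7 of 10 macrophage genes were tested, with 5, 5, 3 and 3 up and 0 down. Their summed level was 31.0 to 34.5 CPM in TN and 29.3 to 54.1 in the SCFA groups, most of it CD68, and the defining genes CD163, MARCO and PTPRC had at most 7 counts in any library. CD14, a co-receptor for bacterial lipopolysaccharide, rose from 0.765 ± 0.187 CPM in TN to 2.76 ± 0.0126, 3.155 ± 0.524, 2.38 ± 0.347 and 2.88 ± 0.204 in PRTN, BUTN, TNPR and TNBU. CSF1R, a receptor of macrophage growth factors, was at 0.146 CPM in TN and at 1.11, 0.958, 0.745 and 0.607 with SCFA. LYZ, which encodes lysozyme, was called in PRTN and BUTN, at 1.02 and 0.843 CPM against 0.0745 in TN, and AIF1 was at 0 in Ctrl and TN and at 0.137 to 0.188 CPM with SCFA. Of 10 endothelial genes 8 were tested, with 7, 7, 8 and 7 up and 0 down. Their summed level was 20.7 to 22.04 CPM in TN and 72.8 to 85.0 with SCFA, most of it ESAM, and KDR and EMCN had at most 3 counts. TIE1, an endothelial receptor tyrosine kinase, was at 0.0731 CPM in TN, from 2 counts in each library, and at 3.20 ± 0.0282, 6.41 ± 0.171, 3.87 ± 1.99 and 6.56 ± 2.79 with SCFA. VWF, which encodes von Willebrand factor, was at 0 in TN and at 0.766 to 1.02 CPM with SCFA. PECAM1 was at 0.0552 CPM in TN and at 0.5625 to 0.842 with SCFA, and CDH5, the cadherin of endothelial junctions, at 0.163 and at 0.951 to 1.74. The part of these markers in the levels of the alkaline phosphatase genes was not tested.

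**Figure D5:**
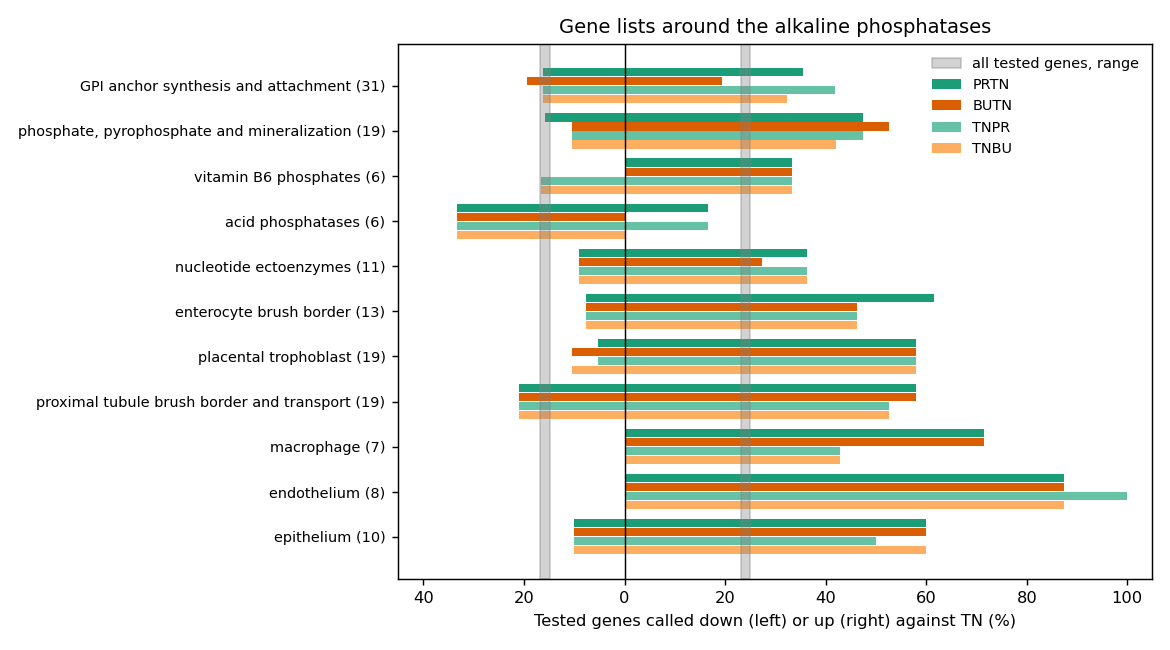
Percentage of the tested genes of each list (number tested in brackets) called up, to the right, or down, to the left, against TN in the 4 SCFA groups; grey bands span the percentages over all tested genes (23.1% to 25% up, 14.8% to 16.9% down). Acid phosphatases lie to the left, with 2 of 6 genes down in each group, and endothelial genes farthest to the right. Genes at or near 0 in Ctrl and TN, such as VWF and TEK, entered the tested part of a list only through the SCFA libraries. The place of a list beside the bands is therefore a description and not a test.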

How the data were processed

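Polyadenylated RNA of HK2 cells was made into stranded libraries, 2 for each of 6 groups. Per the submitters' processing notes the authors checked reads with FastQC 0.11.5 and aligned them with STAR 2.6.1a. The deposited values are expected counts, one value a gene, that the authors estimated with RSEM (version not given in the sources used here) on GRCh38 and GENCODE release 26, neither normalised nor filtered. Replicates were not pooled. A general treatment text in the labels names other compounds, and the label of each treated library, with the study's methods, was followed. Groups come from the library titles.

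Here the counts, not rounded, were fitted with limma 3.58.1 (voom weights, moderated statistics, prior degrees of freedom 6.12) and TMM factors of edgeR 4.0.16 in R 4.3.3, in 1 model with a mean for each group over 12 libraries. Genes were kept where the geometric mean of the count plus 1, minus 1, was at least 1 (24342 kept, 33936 removed). Adjusted p-values are over all kept genes, and a call needs an adjusted p under 0.05 with a fold change over 1.5. CPM use TMM factors, and 0.5 CPM was added before the log2 for correlations. Scripts were tested on simulated counts. The members and gene lists were chosen with earlier results of these data known. Named genes are the members, protein-coding neighbours within 250 kb, up to 3 tested genes of each list with the largest mean absolute change against TN and the 5 most correlated genes, of which 1 is not reported here. Other neighbours that were called and markers at or near 0 were named after their values were seen. So were SPP1, SLC20A1, BMP2, BMP4, ENPP1, TREH, DPP4, EPS8, TFAP2C, PSG1, PSG3, PSG5, PSG9, PAPPA, EPCAM, AQP1, CUBN, CDH6, GGT1, PDZK1, SLC4A4, CD14, CD68, CDH5 and ESAM. Positions come from GENCODE release 44, and promoters from RefSeq. Sequences were aligned with Biopython 1.88. The alternatives were edgeR and DESeq2 1.42.0 on rounded counts, 2 other scalings, 3 other filters, fits of only the groups compared, the pair summed, no fold threshold, a replicate block and leaving out each library. Same replicate numbers were not treated as pairs: deviations of same-numbered libraries correlated from -0.0791 to 0.240 over 15 pairs of groups, with 1 over 0.1. Protein sequences were not analysed here.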

Additional observations from a re-analysis of the deposited data

How the results depend on the processing

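Of 171 values of the tested member contrasts under other settings, 168 kept their direction and their side of the threshold. DESeq2 gave no adjusted p for ALPPL2, ALPP and ALPL in PRTN vs BUTN, and such values were counted as not called. A filter on the geometric mean without the added count removed ALPPL2, which has no value under it. ALPP in PRTN vs BUTN was called in a fit of only those groups (0.81), ALPL in TNBU vs BUTN was called with no fold threshold (-0.48), and ALPP in TNPR vs TNBU turned to 0.082 for the summed pair. With library size alone as scaling, ALPL against TN was 4.38 for BUTN, 3.59 for TNPR and 3.94 for TNBU, and the levels in PRTN were 9.51 CPM for ALPPL2 and 7.07 CPM for ALPP. That scaling moved the median of all genes by 0.153 to 0.196 against TN and the calls to 6785 up and 3127 down in PRTN (5824 and 4057 with TMM), 6579 and 2656 in BUTN (5620 and 3613), 7232 and 3132 in TNPR (6067 and 4117) and 7329 and 2849 in TNBU (6094 and 4027), which is by its construction, since it leaves out the TMM factors. In TN vs Ctrl it gave 144 up and 181 down, against 197 and 122 with relative log expression factors.

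Leaving out each library in turn kept direction and side in 180 of 192 values of the tested contrasts. The ranges were -0.234 to 0.539 for ALPPL2 and -0.519 to 0.351 for ALPP in TNPR vs TNBU, -0.822 to -0.502 and -1.527 to -0.657 in TNPR vs PRTN, -0.597 to 0.140 for ALPP in TNBU vs BUTN, and -0.540 to 0.233 for ALPPL2, -1.309 to -0.438 for ALPP and -0.012 to 0.119 for ALPL in the difference of timing contrasts. ALPL against TN ranged from 3.578 to 4.043 in PRTN, 3.966 to 4.431 in BUTN, 3.160 to 3.625 in TNPR and 3.501 to 3.966 in TNBU, with both ends set by a TN library. With a single library left in a group, that library is assumed to vary like the others.

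Counts of called genes moved by over 1.5 times in the small contrasts. PRTN vs BUTN had 41 calls, 27 with DESeq2, 75 with only a count of 1 in any library required and 3 to 76 without 1 library. TNPR vs TNBU had 2, 9 with DESeq2, 13 with that weakest filter and 2 to 4 without 1 library. TNPR vs PRTN had 39, 25 with edgeR and 8 to 76 without 1 library. TNBU vs BUTN had 65 and 18 to 317, the last without TNBU replicate 1. TN vs Ctrl had 316 and 177 to 376. The difference of timing contrasts had 0, 1 with edgeR or with the weakest filter, 4 with DESeq2 and 0 to 10. The cause was not tested. The replicate block gave 27 calls in PRTN vs BUTN and changed no call of a member (ALPPL2 in TNPR vs PRTN -0.635, ALPL in TNBU vs BUTN -0.477). Depth limits ALPPL2 and ALPP without SCFA and ALPI throughout.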
